A study of Homo sapiens with 6 samples.

Results

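MALAT1, NEAT1, KCNQ1OT1, TUG1 and OIP5-AS1 are 5 long non-coding RNAs that were grouped here as mainly nuclear. They were taken by gene name from both deposited tables and make up 5 of 58302 genes. All 5 had reads in every antibody group, and all 5 passed the minimum of 10 reads in at least 2 libraries used for tests across genes. A further gene ID carrying the name MALAT1 held 0 reads and was left aside, so each name stands for 1 ID below.

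The cytoplasmic poly(A)-binding proteins PABPC1 and PABPC4 bind the poly(A) tails of messenger RNAs and act in their translation and stability. The 5 RNAs differ in how they meet such proteins. MALAT1 is a nuclear speckle RNA whose mature 3′ end is cut by RNase P and closed by a triple helix, so that it ends without an added poly(A) tail. NEAT1 is the scaffold of paraspeckles. Its short isoform is polyadenylated and its long isoform ends, like MALAT1, without a tail. KCNQ1OT1 is a chromatin-bound antisense RNA that silences imprinted neighbours of KCNQ1. TUG1 and OIP5-AS1 (also called cyrano) are spliced and polyadenylated, and both have also been found in the cytoplasm.

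The study used HepG2, a human hepatocellular carcinoma cell line, and sequenced RNA recovered by immunoprecipitation (RIP). There were 2 PABPC4 RIP libraries from cells overexpressing PABPC4, 2 PABPC1 RIP libraries from cells overexpressing PABPC1, and 2 rabbit IgG libraries, 1 from each overexpressing population. The tables do not keep the IgG libraries apart: both RIPs were compared with the same pool of 2, so the comparisons with IgG share their control. Unmodified cells and total RNA were not analysed here, so an effect of overexpression on RNA levels and a difference in binding cannot be told apart. In lysates of many cells, fewer cells carrying an RNA and less of it per cell cannot be told apart either.

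Whole reads for each library were recovered from the deposited folds and p-values. Libraries are called A and B within an antibody, the larger first, because the tables do not say which is replicate 1. Totals were 850190 and 841327 reads for PABPC4, 289217 and 277552 for PABPC1, and 133030 and 94235 for IgG. Recovered nuclear-encoded genes took 78.6% to 80.1% of the reads in PABPC4 libraries, 54.2% to 59.8% in PABPC1 libraries and 39.4% to 41.4% in IgG libraries. The mitochondrial ribosomal RNAs MT-RNR1 and MT-RNR2 stood at 0.323-fold and 0.286-fold over IgG in the authors' deposited table for PABPC4. In the authors' deposited table for PABPC1 they stood at 0.690-fold and 0.694-fold. PABPC4 mRNA stood at 162 and 183 reads-per-million of the library total (RPM) in PABPC4 libraries, 111 and 155 in PABPC1 libraries, and 75.2 and 42.4 in IgG libraries. PABPC1 mRNA stood at 590 and 676 RPM in PABPC4 libraries, 595 and 634 in PABPC1 libraries, and 286 and 318 in IgG libraries. By limma voom with median-of-ratios scaling, PABPC4 mRNA had a log2 value of -0.07 for PABPC4 over PABPC1 RIP (adjusted p = 0.923).

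Hepatocyte markers matched the labelled cell type, with 10336 to 11050 RPM summed over 15 genes in PABPC4 libraries, 7583 to 8445 in PABPC1 libraries and 4934 to 4984 in IgG libraries. APOB alone had 8208, 2011 and 425 of these reads in PABPC4, PABPC1 and IgG. The 14 with at least 100 reads had medians of 2.02-fold in PABPC4 and 1.46-fold in PABPC1. APOA2 and RBP4 stood lower, at 1.17-fold and 1.14-fold in PABPC4 and 0.776-fold and 0.871-fold in PABPC1 by summed reads. Markers of blood cells were present as well, and their sums were lower in the RIPs. The 6 erythroid markers summed to 380 to 560 RPM in PABPC4 libraries, 1086 to 1160 in PABPC1 libraries and 3277 to 3300 in IgG libraries, with at most 1 of them at 0 in any library. The 10 leukocyte markers summed to 225 to 245, 346 to 389 and 579 to 775 RPM in PABPC4, PABPC1 and IgG libraries, again with at most 1 at 0. Single markers differed from these sums: the leukocyte genes LYZ and CD74 stood at 1.00-fold and 1.09-fold over IgG in PABPC4 and at 1.14-fold and 1.15-fold in PABPC1 by summed reads, and the erythroid gene SLC4A1 at 1.00-fold in PABPC1 on 4 IgG reads. The 6 fibroblast markers summed to 14.3 to 24.7, 43.2 to 51.9 and 180 to 218 RPM in the same order of antibodies, with up to 2 at 0. HBD of the erythroid, LUM of the fibroblast and TTR of the hepatocyte markers had 0 reads in IgG. The part of this RNA in the results below was not tested.

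MALAT1 (ENSG00000251562) lies at chr11:65497738-65506516 of GRCh38.p14 in RefSeq. It had 17548 and 16729 reads in PABPC4 libraries, 3255 and 3294 in PABPC1 libraries, and 1088 and 849 in IgG libraries. Among the 14867 genes with recovered reads, this made it first in PABPC4 libraries and second in both PABPC1 and IgG libraries. Genes without recovered reads, MT-RNR1 and MT-RNR2 included, were not ranked. Such genes held 16.7% to 17.7% of reads in PABPC4 libraries, 35.9% to 41.5% in PABPC1 libraries and 55.1% to 57.1% in IgG libraries. MALAT1 averaged 20262 ± 535 RPM in PABPC4, 11561 ± 434 RPM in PABPC1 and 8594 ± 587 RPM in IgG (SD, n = 2 each). The 3 antibodies did not overlap, with both PABPC4 libraries highest and both IgG libraries lowest. By RPM the typical gene, as measured by median-of-ratios scaling, had the same order, at 1.78-fold and 1.31-fold over IgG in PABPC4 and PABPC1. That shift bears on the RPM of the other RNAs below as well. The share of all genes whose libraries separate in this way was not computed. MALAT1 was also the largest single lncRNA in each library. It took 59.1% to 59.7% of reads from RefSeq lncRNA genes in PABPC4 libraries, 46.1% to 46.4% in PABPC1 libraries and 48.7% to 49.3% in IgG libraries.

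NEAT1 (ENSG00000245532), at chr11:65422798-65445540, lies close to MALAT1 on the same chromosome and behaved differently. It had 4385 and 4409 reads in PABPC4 libraries, 1713 and 1717 in PABPC1 libraries, and 636 and 470 in IgG libraries. Its level was 5199 ± 58.6 RPM in PABPC4, 6055 ± 186 in PABPC1 and 4884 ± 146 in IgG (SD, n = 2 each). NEAT1 was thus highest in both PABPC1 libraries, where MALAT1 was intermediate. Its share of lncRNA reads was 14.9% to 15.6% in PABPC4 libraries, 24.0% to 24.4% in PABPC1 libraries and 27.3% to 28.5% in IgG libraries. The files give 1 value per gene, so the short and long isoforms of NEAT1 could not be separated.

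KCNQ1OT1 (ENSG00000269821), at chr11:2608328-2699994, had 562 and 554 reads in PABPC4 libraries, 153 and 172 in PABPC1 libraries, and 38 and 24 in IgG libraries. It averaged 660 ± 1.80 RPM in PABPC4, 574 ± 64.1 in PABPC1 and 270 ± 21.9 in IgG (SD, n = 2 each). Both RIPs lay above both IgG libraries. Only MALAT1 and NEAT1 had more reads among 37 lncRNAs with at least 100 reads over all libraries, a class to which TUG1 was added because RefSeq lists that gene as protein-coding. Its length of 91667 nucleotides spreads those reads thinly, so that per kilobase it was the lowest of the 5 RNAs in PABPC4 libraries.

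OIP5-AS1 (ENSG00000247556), at chr15:41282697-41313338, had 101 and 97 reads in PABPC4 libraries, 31 and 33 in PABPC1 libraries, and 10 and 7 in IgG libraries. Its level was 117 ± 2.48, 113 ± 8.28 and 74.7 ± 0.628 RPM in PABPC4, PABPC1 and IgG libraries (SD, n = 2 each). The RIPs overlapped each other and lay above IgG. TUG1 (ENSG00000253352), at chr22:30969265-30979395, was the sparsest, with 70 and 61 reads in PABPC4 libraries, 16 and 11 in PABPC1 libraries, and 0 and 3 in IgG libraries. It averaged 77.4 ± 6.95 RPM in PABPC4, 47.5 ± 11.1 in PABPC1 and 15.9 ± 22.5 in IgG (SD, n = 2 each). The IgG library with 0 TUG1 reads allows a level of up to 22.6 RPM, the level of 3 reads, for counting error only.

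**Figure D1:**
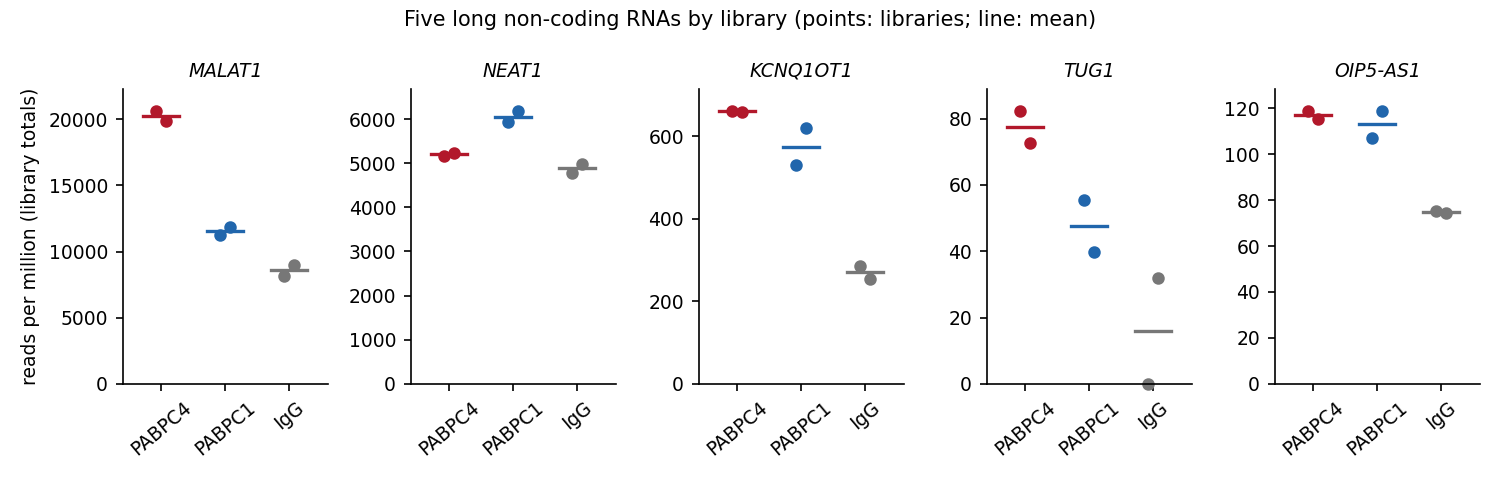
RPM by library totals for the 5 RNAs, 1 panel each with its own axis from 0. Points are libraries and lines are means of 2. MALAT1 separates the antibodies in the order PABPC4, PABPC1, IgG, whereas NEAT1 is highest in PABPC1, at 6055 RPM. On this scale the typical gene has the MALAT1 order too, at 1.78-fold and 1.31-fold over IgG in PABPC4 and PABPC1.

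Few reads were assigned to the overlapping genes where they could be counted. KCNQ1OT1 lies within KCNQ1, which had 0 reads in PABPC4 libraries, 0 in PABPC1 libraries and 1 in IgG libraries. OIP5-AS1 overlaps OIP5, which had 2, 1 and 0 reads, and NEAT1 holds the microRNA gene MIR612, which had 0 in all. MALAT1 overlaps the antisense TALAM1 and the small RNA MASCRNA, neither of which has a row. Of 17 overlapping or neighbouring genes listed, 10 had a deposited p and 0 were called in either RIP. Of all genes, 5.54% were higher and 0.9% lower in PABPC4, and 1.34% and 0.194% in PABPC1. No source used here states a strand setting for the counting, so MALAT1 and TALAM1 reads cannot be told apart. For the same reason, KCNQ1 or OIP5 reads that were counted under KCNQ1OT1 or OIP5-AS1 could not be seen.

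Per kilobase, MALAT1 was the highest of the 5 RNAs in each antibody, at 2314 RPKM (RPM divided by the length in kilobases) in PABPC4, 1321 in PABPC1 and 982 in IgG. NEAT1 followed at 228, 266 and 215 RPKM. The remaining 3 lay far lower and close together. In PABPC4 libraries the order was TUG1 at 11.4 ± 1.02 RPKM, OIP5-AS1 at 9.24 ± 0.195 and KCNQ1OT1 at 7.20 ± 0.0196 (SD, n = 2 each). In PABPC1 libraries OIP5-AS1 led at 8.92 ± 0.653 RPKM, while TUG1 at 6.99 ± 1.63 and KCNQ1OT1 at 6.27 ± 0.700 differed by less than their spread. In IgG libraries OIP5-AS1 was at 5.90 ± 0.0496 RPKM, and KCNQ1OT1 at 2.95 ± 0.239 and TUG1 at 2.34 ± 3.31 again differed by less than their spread.

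Against IgG, 3 of the 5 RNAs were higher in each RIP, and they were not the same 3. In the authors' deposited table for PABPC4, MALAT1 was at 2.36-fold with an adjusted p listed as 0, KCNQ1OT1 at 2.44-fold (adjusted p = 4.67e-10) and TUG1 at 4.85-fold (adjusted p = 0.0181). The authors' deposited table also gives NEAT1 at 1.06-fold (adjusted p = 0.321) and OIP5-AS1 at 1.56-fold (adjusted p = 0.547). Of the 21455 genes tested there, 5.54% were higher and 0.9% were lower at an adjusted p under 0.05. That share depends on depth: among the 203 genes with 1000 to 10000 reads over all libraries, the range in which KCNQ1OT1 lies, 91.6% were higher. Among the 10 genes with more recovered reads than that, MALAT1 and NEAT1 included, 5 were higher and 2 lower. All shares by depth cover only genes with recovered reads. MT-RNR1 and MT-RNR2, which were lower in both deposited comparisons, had none and are not among them.

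A different set was higher in PABPC1 RIP. Here the authors' deposited table puts MALAT1 at 1.35-fold (adjusted p = 3.56e-29), NEAT1 at 1.24-fold (adjusted p = 1.46e-07) and KCNQ1OT1 at 2.12-fold (adjusted p = 1.81e-05). The authors' deposited table gives OIP5-AS1 at 1.51-fold (adjusted p = 1) and TUG1 at 2.98-fold (adjusted p = 0.631), which did not pass. The background was 1.34% of 17565 genes higher and 0.194% lower, and 52.7% higher among the 203 genes with 1000 to 10000 reads. Among the 10 genes with recovered reads above that range, which hold MALAT1 and NEAT1, 9 were higher and 0 lower. MT-RNR1 and MT-RNR2, whose reads were not recovered, are not among these 10 genes. They were lower in PABPC1, at 0.690-fold and 0.694-fold. The deposited p-values were computed from reads summed over libraries and cover counting error only, not the spread between libraries. None of the 5 RNAs was lower in either deposited comparison. A limma voom fit on library totals, which uses that spread, called the same 3 RNAs in each RIP, beside 28.8% of 7956 genes higher and 0.641% lower in PABPC4 and 4.66% higher and 0.365% lower in PABPC1.

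TUG1 rests on 3 IgG reads. From summed reads without the constant that the authors added to IgG, it was 5.87-fold over IgG in PABPC4 libraries, with a 95% counting interval of 1.96 to 28.8. The PABPC4 call ended without IgG library A, where it stood at 2.43-fold, and without IgG library B, which leaves an IgG level of 0 (adjusted p = 0.0644). Against IgG library B alone, the PABPC4 libraries stood at 2.59-fold and 2.28-fold.

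These folds are relative to library totals, which include the mitochondrial ribosomal RNAs MT-RNR1 and MT-RNR2 that were lower in both RIPs. By that scale the typical gene was itself 1.78-fold higher in PABPC4 and 1.31-fold higher in PABPC1 than in IgG, as measured by median-of-ratios scaling over genes with a read in every library. In log2 units these shifts are 0.83 and 0.38. Relative to the typical gene, MALAT1 remained higher in PABPC4 RIP, at 1.34-fold (95% counting interval 1.28 to 1.40), and NEAT1 was lower, at 0.601-fold (0.565 to 0.641). A limma voom fit over the recovered libraries on this scale, which uses the spread between libraries, called both, with adjusted p = 1.29e-08 for MALAT1 and 1.01e-12 for NEAT1. KCNQ1OT1 at 1.36-fold, TUG1 at 3.30-fold and OIP5-AS1 at 0.881-fold were not called in that fit, which called 2.44% of 7956 genes higher and 1.65% lower. Over all genes, the split of the authors' kind of test moved from 1188 higher and 193 lower by library totals to 167 higher and 396 lower on this scale.

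In PABPC1 RIP, no RNA of the 5 was called on the scale of the typical gene. MALAT1 stood at 1.04-fold (95% counting interval 0.987 to 1.09), NEAT1 at 0.952-fold (0.890 to 1.02), KCNQ1OT1 at 1.61-fold (1.22 to 2.15), TUG1 at 2.76-fold (0.850 to 14.2) and OIP5-AS1 at 1.16-fold (0.669 to 2.11). Limma voom called 0 of 5, with 2 of 5 at an unadjusted p under 0.05 (KCNQ1OT1 and TUG1), against 0.553% of 7956 genes called higher and 0.415% lower. With totals over nuclear-encoded genes, NEAT1 was called lower at 0.878-fold by the authors' kind of test (adjusted p = 0.0328). Limma voom, which uses the spread between libraries, did not call NEAT1 on that scale, at 0.877-fold (adjusted p = 0.154). All 4 pairings of a PABPC1 library with an IgG library put KCNQ1OT1 above 1 on each of the 3 scales, at 1.35-fold to 2.43-fold.

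**Figure D2:**
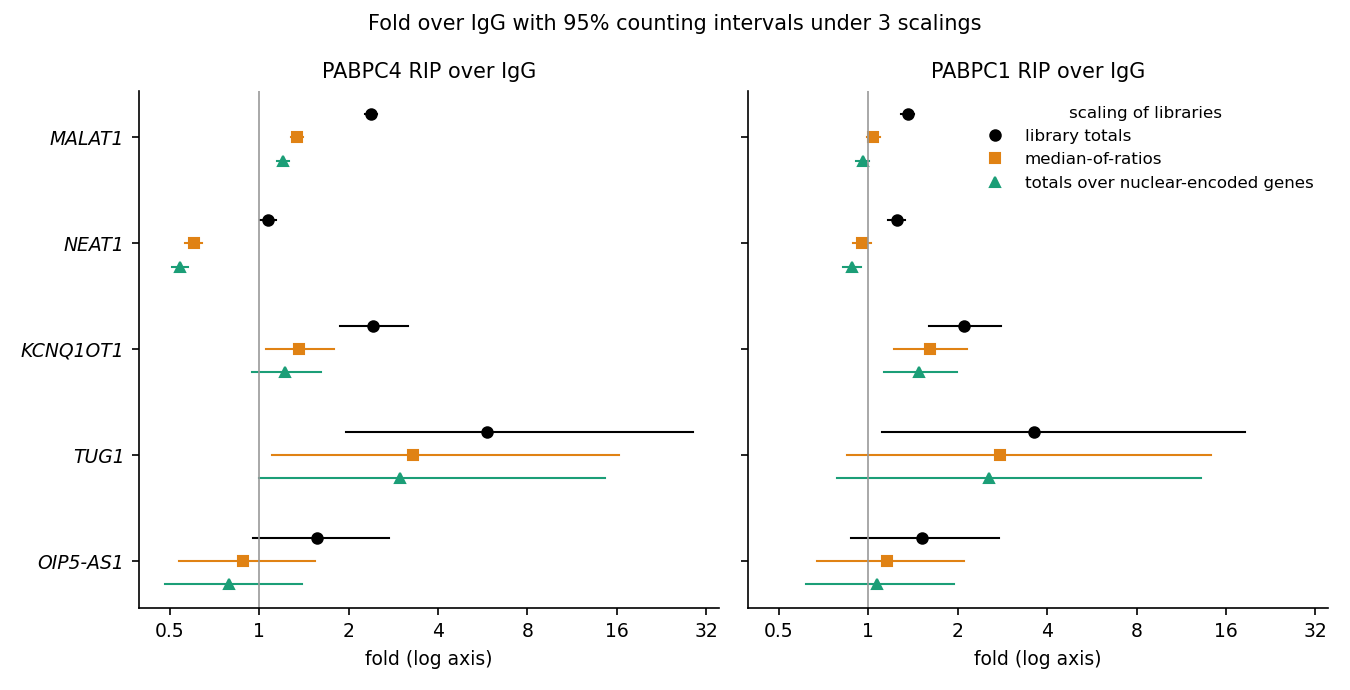
Fold of summed reads over IgG for PABPC4 RIP (left) and PABPC1 RIP (right) on a log axis, with 95% exact counting intervals, under 3 scalings of the libraries. The folds shrink when the scale moves from library totals to the other 2, by the same factor for every gene in a panel. NEAT1 in PABPC4 crosses 1, from 1.07-fold by library totals to 0.601-fold and 0.541-fold. OIP5-AS1 in PABPC4 and NEAT1 in PABPC1 also cross 1 on both other scales, and MALAT1 in PABPC1 does so on nuclear totals.

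PABPC4 and PABPC1 RIPs were then set against each other directly. MALAT1 was higher in PABPC4 RIP and NEAT1 was lower, and the remaining 3 RNAs did not pass the test after adjustment. By limma voom with median-of-ratios scaling, MALAT1 differed by a log2 value of 0.37 (95% interval 0.32 to 0.41, adjusted p = 4.02e-15). NEAT1 differed by a log2 value of -0.66 (-0.73 to -0.60, adjusted p = 3.08e-19), or 0.631-fold. The counts of 1 higher and 1 lower of 5 stand beside 2.35% higher and 2.09% lower of all 7956 genes. That share was not computed for genes as deep as MALAT1 and NEAT1. By size of the log2 value, 24.3% of the 7956 genes lay above MALAT1 and 91.2% above NEAT1. NEAT1 stayed lower and past the threshold in all 11 alternatives tried, the scale of library totals included, where its log2 value was -0.22 (limma voom adjusted p = 4.09e-05). MALAT1 was higher in all 11 and lost its call in 1 of them, limma-trend, with an adjusted p of 0.131.

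The remaining 3 RNAs had wider intervals. KCNQ1OT1 had a log2 value of -0.24 for PABPC4 over PABPC1 (95% interval -0.46 to -0.03), with a limma voom p of 0.0291 before adjustment and an adjusted p = 0.229. OIP5-AS1 had -0.41 (-0.85 to 0.03, limma voom adjusted p = 0.361) and TUG1 0.24 (-0.44 to 0.92, limma voom adjusted p = 0.791). KCNQ1OT1 and OIP5-AS1 changed sign by library totals, to 0.20 and 0.038. TUG1 changed sign without PABPC1 library B, to -0.059. The intervals do not show that the antibodies recovered these 3 RNAs alike.

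**Figure D3:**
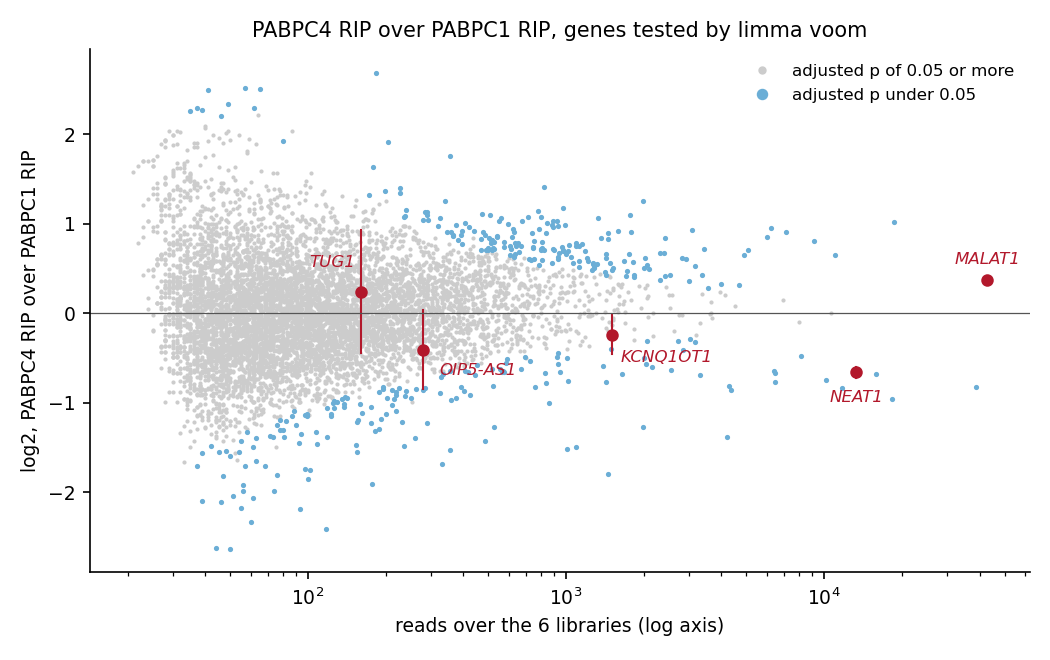
Log2 difference of PABPC4 RIP over PABPC1 RIP by limma voom against reads summed over the 6 libraries (log axis), for 7956 genes. The 5 RNAs are marked with 95% intervals, which are narrower than the marker for MALAT1 at 0.37 and for NEAT1 at -0.66.

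A ratio of 2 RNAs within a library does not depend on how libraries are scaled. Per kilobase, MALAT1 stood at 10.4 and 9.87 times NEAT1 in PABPC4 libraries, 4.94 and 4.99 times in PABPC1 libraries, and 4.45 and 4.70 times in IgG libraries. The mean ratio was therefore 2.04 times as high in PABPC4 as in PABPC1, and 1.09 times as high in PABPC1 as in IgG. KCNQ1OT1 over NEAT1 was 0.0315 ± 0.000441 in PABPC4, 0.0235 ± 0.00191 in PABPC1 and 0.0138 ± 0.00153 in IgG (SD, n = 2 each). OIP5-AS1 over NEAT1 was 0.0405 ± 0.00131, 0.0335 ± 0.00143 and 0.0275 ± 0.00105 in PABPC4, PABPC1 and IgG (SD, n = 2 each). TUG1 over NEAT1 was 0.0535 and 0.0464 in PABPC4 libraries, 0.0313 and 0.0215 in PABPC1 libraries, and 0 and 0.0214 in IgG libraries, so that the lower PABPC1 library, on 11 reads, and the higher IgG library, on 3, were barely apart. The antibodies kept the order PABPC4, PABPC1, IgG in all 4 ratios, which share NEAT1 as their denominator. Relative to the typical gene, OIP5-AS1 itself was lower in PABPC4 than in PABPC1 in all 4 pairings of libraries, at 0.740-fold to 0.784-fold. An exact two-sided permutation test of 2 libraries against 2 cannot go below 0.333, and all 12 comparisons gave that value.

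**Figure D4:**
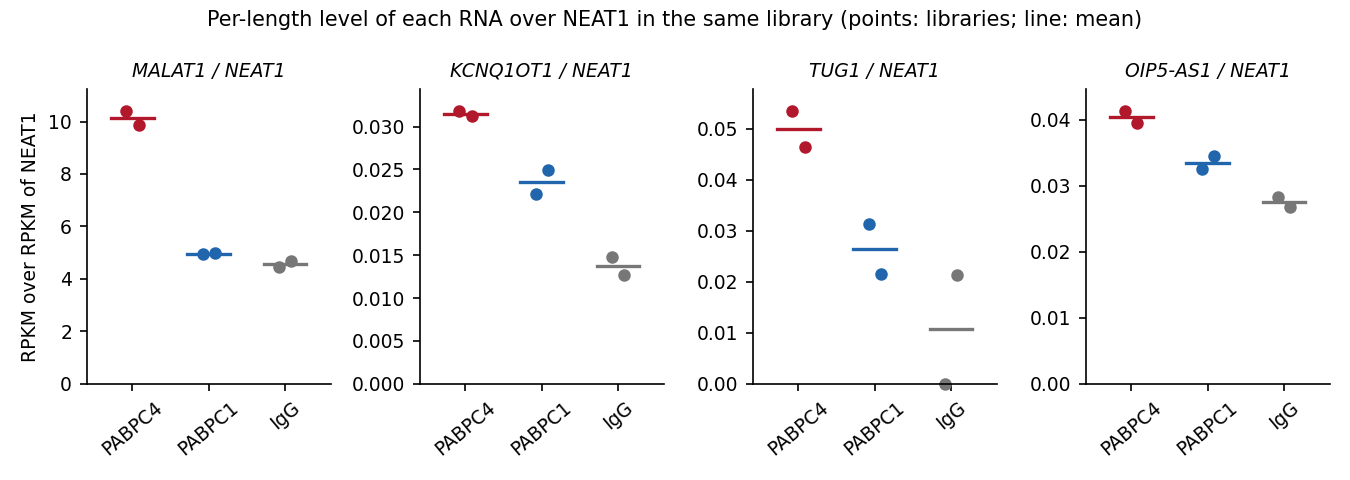
RPKM of MALAT1, KCNQ1OT1, TUG1 and OIP5-AS1 divided by the RPKM of NEAT1 in the same library, each panel with its own axis from 0. Points are libraries and lines are means of 2. The MALAT1 ratio is near 10 in PABPC4 and between 4.45 and 4.99 in the other libraries.

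Other non-coding RNAs give a setting for these values. Of 15 further lncRNAs described as nuclear, 9 had a deposited p, and 0 were called in either direction in either RIP, though only 2 had at least 100 reads. Of all genes, 5.54% were higher and 0.9% lower in PABPC4, and 1.34% and 0.194% in PABPC1. At 100 to 1000 reads, 28.5% were higher in PABPC4 and 3.36% in PABPC1. At 1000 to 10000 reads, the range of NORAD below, 91.6% and 52.7% were higher. LINC-PINT, a p53-induced RNA, was at 1.71-fold in PABPC4 and 1.17-fold in PABPC1 by summed reads, and FTX, of the X-inactivation centre, at 1.30-fold and 1.39-fold. Of 14 lncRNAs described as cytoplasmic, 1 was higher in each RIP, among 14 with a deposited p in PABPC4 and 13 in PABPC1, and 1 had at least 100 reads. That was NORAD, which binds the Pumilio proteins, at 1.92-fold in PABPC4 and 1.80-fold in PABPC1 by summed reads (814 reads in PABPC4, 256 in PABPC1 and 57 in IgG). The highest cytoplasmic lncRNAs by reads after it were GAS5 at 2.12-fold in PABPC4 and 1.50-fold in PABPC1, SNHG5 at 5.91-fold and 5.21-fold, and DANCR at 1.75-fold and 1.07-fold, with 4, 1 and 3 IgG reads. None of GAS5, SNHG5 and DANCR was called.

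Structural RNAs that carry no poly(A) tail were lower in the RIPs, whereas MALAT1 was higher by library totals. Only 3 of 9 had reads, and all 3 were lower in PABPC4 and 2 of 3 in PABPC1 in the deposited comparisons. Of all genes tested there, 0.9% were lower in PABPC4 and 0.194% in PABPC1. At 1000 to 10000 reads, the range of RN7SL2, 2.46% and 1.97% were lower. RN7SL2, the RNA of the signal recognition particle, was at 0.211-fold in PABPC4 and 0.405-fold in PABPC1 by summed reads (1846 reads in PABPC4, 1188 in PABPC1 and 1176 in IgG). By limma voom its log2 difference of PABPC4 over PABPC1 was -1.39 (adjusted p = 1.72e-18). SNORD3A, a small nucleolar RNA, was at 0.0840-fold and 0.200-fold, on 16 IgG reads. RN7SL2 has near-identical genomic copies, between which the authors' counting could have split reads.

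The mRNAs of the proteins that work with these RNAs were read from the same tables. Of 14 paraspeckle proteins, which assemble on NEAT1, 15 gene IDs had a deposited p in the PABPC4 table: 7 were higher and 0 lower, with a median of 2.18-fold over the 12 IDs with at least 100 reads, beside 2.12-fold for all 3696 genes of that depth. In PABPC1, 3 of 14 were higher, with a median of 1.65-fold beside 1.49-fold. Of all genes, 28.5% were higher in PABPC4 and 3.36% in PABPC1 at 100 to 1000 reads, and 91.6% and 52.7% at 1000 to 10000 reads. SFPQ, an essential paraspeckle protein, was at 2.76-fold in PABPC4 and 1.39-fold in PABPC1 by summed reads, and NONO, its partner, at 1.49-fold and 0.953-fold. Between the RIPs, SFPQ rose by a log2 value of 0.54 in PABPC4 (limma voom adjusted p = 0.00166), and NUDT21, a subunit of the cleavage factor that sets the short NEAT1 end, fell by 0.96 (limma voom adjusted p = 0.00629). The remaining 12 tested did not pass, beside 2.35% higher and 2.09% lower of all 7956 genes.

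Of 12 mRNAs of nuclear speckle and splicing proteins, 7 were higher in PABPC4 and 2 in PABPC1 in the deposited comparisons, and 0 were lower. Beside them, 5.54% and 1.34% of all genes were higher, and 28.5% and 3.36% of genes with 100 to 1000 reads. At 1000 to 10000 reads, the range of PNN, ACIN1, SRRM1 and SRRM2, 91.6% and 52.7% of genes were higher. Between the RIPs, 3 of 11 tested were higher in PABPC4 by limma voom, beside 2.35% of all genes. They were SON, a speckle scaffold, with a log2 value of 1.03 (adjusted p = 0.000162), PNN, a splicing-associated protein, with 0.70 (adjusted p = 6.10e-07), and SRRM1, a splicing coactivator, with 0.47 (adjusted p = 0.0118). SRRM1 was also among the clearest over IgG, at 4.37-fold in PABPC4 and 2.31-fold in PABPC1 by summed reads. The median log2 difference of the 11 was 0.32, beside 0.00087 for all genes tested.

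Of 12 mRNAs of factors that process or stabilise MALAT1 and NEAT1, 5 were higher in PABPC4 and 2 in PABPC1. In these deposited comparisons the same 5.54% and 1.34% of all genes were higher, and 28.5% and 3.36% at 100 to 1000 reads. At 1000 to 10000 reads, the range of HNRNPU and PABPN1, 91.6% and 52.7% of genes were higher. HNRNPU, a nuclear matrix protein, was at 1.85-fold and 1.37-fold, and PAPOLA, the nuclear poly(A) polymerase, at 1.91-fold and 1.75-fold. PABPN1, the nuclear poly(A)-binding protein, was at 1.99-fold in PABPC4 and 2.49-fold in PABPC1, and it fell by 0.77 on the log2 scale in PABPC4 relative to PABPC1 (limma voom adjusted p = 3.45e-06). It was the sole member of the 10 tested between the RIPs to pass, beside 2.35% higher and 2.09% lower of all 7956 genes. Of 9 RNA partners described for the 5 lncRNAs, 1 was higher in PABPC4 and 0 in PABPC1 over IgG in the deposited comparisons. DNMT1, a DNA methyltransferase described with mouse Kcnq1ot1, was at 2.34-fold and 1.01-fold, and it was higher in PABPC4 than in PABPC1 by a log2 value of 0.75 (limma voom adjusted p = 0.0174). These lists were drawn up by function with earlier results of these data known, and no test set them against other genes.

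**Figure D5:**
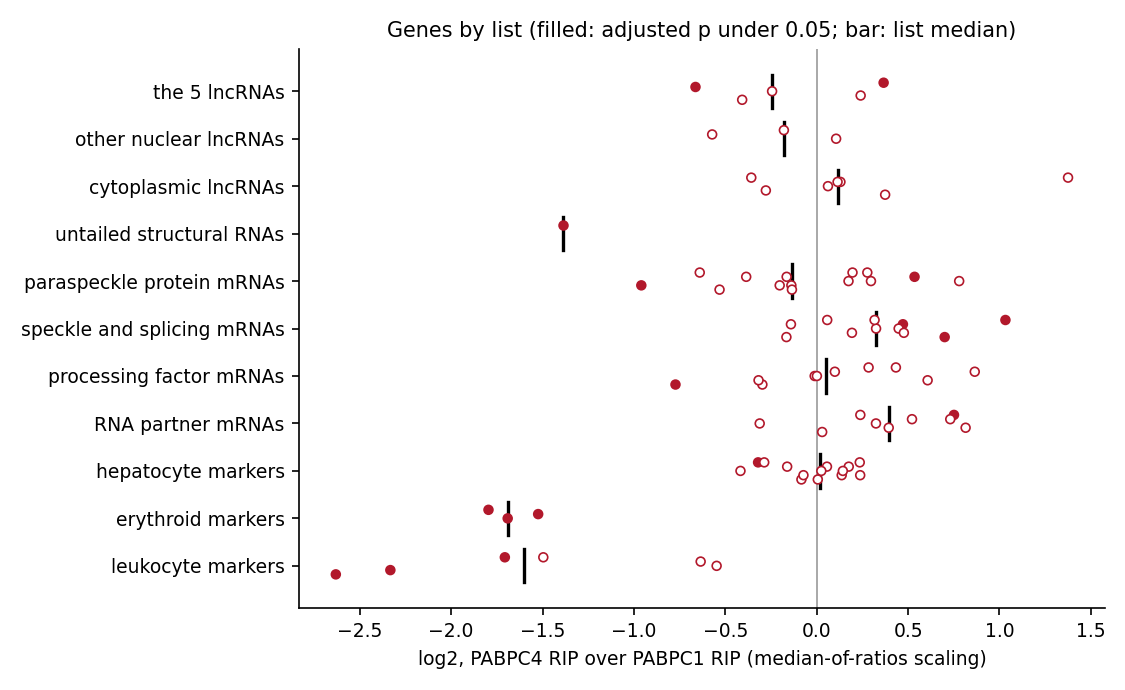
Log2 difference of PABPC4 RIP over PABPC1 RIP by limma voom for the genes tested in 11 lists, with filled points at an adjusted p under 0.05 and a bar at each list's median. The 5 lncRNAs span -0.66 to 0.37, and the erythroid markers have a median of -1.69.

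Erythroid and leukocyte markers had median log2 differences of -1.69 and -1.60 in this comparison. HBB, a haemoglobin chain, had a log2 value of -1.80 for PABPC4 over PABPC1 (limma voom adjusted p = 1.06e-14), and 3 of 3 erythroid and 3 of 6 leukocyte markers tested were lower. The hepatocyte markers had a median of 0.02, with 1 of 14 tested lower (ALB, serum albumin, at -0.32, limma voom adjusted p = 0.0200) and 0 higher. Beside these counts, 2.09% of all 7956 genes tested were lower and 2.35% were higher.

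Genes with the most similar profiles over the 6 libraries were found among 3696 genes with at least 100 reads, by Euclidean distance between centred log2 profiles scaled by library totals. For NEAT1 the nearest was MT-CYB, a mitochondrially encoded subunit of the respiratory chain, at a distance of 0.0765, followed by MARCH8, an E3 ubiquitin ligase, at 0.133 and MT-ND2, another mitochondrially encoded subunit, at 0.140. The median gene lay at 1.21 from NEAT1. For MALAT1 the nearest were FBXO22, an F-box protein, at 0.122, VEGFA, the angiogenic growth factor, at 0.127 and UBP1, a transcription factor, at 0.176. For KCNQ1OT1 they included RPL35, a ribosomal protein, at 0.124 and TM4SF1, a membrane protein, at 0.186. For OIP5-AS1 they were YBX1, an mRNA-binding protein, TKT, a transketolase, and DENND5A, at 0.109 to 0.182. For TUG1 they were CFB, complement factor B, NCBP3, a cap-binding protein, and DIAPH3, a formin, at the larger distances of 0.471 to 0.574. Among the 5 RNAs, NEAT1 and OIP5-AS1 were the closest pair at 0.418, and MALAT1 and NEAT1 lay 1.27 apart. All distances share the same 6 libraries.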

How the data were processed

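The authors deposited 2 tables, PABPC1 against IgG and PABPC4 against IgG, each with a fold (a linear ratio per the file headers), a p-value and a Benjamini-Hochberg adjusted p-value. No columns of single libraries were given (0 columns of per-sample values were left unused). Per the submitters' processing notes, featureCounts 2.0.1, STAR 2.7.10a and Bowtie2 2.4.1 were used with GRCh38 and hg38; their roles are not given. From the values, the deposited p-value is that of a Yates-corrected chi-square on reads summed over libraries (largest log ratio 1.5e-13), and the fold divides the mean RPKM of RIP by that of IgG plus 0.005.

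Whole reads per library were solved from these values for 14867 genes. Gene lengths came out whole to within 4.6e-06 nucleotides, and IgG reads were the same in 8520 of 8520 genes solved in both tables. For 2 genes with a p of 0 in 1 table, MALAT1 included, the reads came from the folds, and 228 genes that more than 1 set of reads fitted were left out. The recovery and the voom fit were tested on simulated data. These reads are not a deposited unit, so the comparisons with IgG keep the authors' test.

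PABPC4 was compared with PABPC1 by limma 3.58.1 (voom, R 4.3.3) in 3 groups on genes reaching 10 reads in 2 or more libraries. Scaling was by median-of-ratios, with 3 residual degrees of freedom. Moderation added 34.83 prior degrees of freedom, so the spread behind each p-value was borrowed mostly from other genes. Calls were made at an adjusted p under 0.05 over all genes tested. Counting intervals are exact (Clopper-Pearson, 95%, Python 3.11.15, SciPy 1.17.1). The labels do not say whether replicates are separate cultures, so p-values measure only a spread that may be technical. Alternatives were other scalings, Fisher's exact test, limma-trend, other filters and each library left out.

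The 5 RNAs and all gene lists were chosen with earlier results of these data known. Named genes were the 5 RNAs, the 3 nearest profiles of each (1 read added) and up to 4 genes per list by reads; 1 gene that this rule names is not reported here. SON, NUDT21, MT-RNR1, MT-RNR2, PABPC1 mRNA, PABPC4 mRNA, SLC4A1, HBD, LUM, TTR, APOA2 and RBP4 fall outside that rule. These were named after their values were seen. Overlapping genes were named where they bore on the reads of the 5 RNAs. Coordinates are from RefSeq on GRCh38.p14. No transcript sequence was used here.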

Additional observations from a re-analysis of the deposited data

Results flagged for a closer look

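The PABPC4 and PABPC1 effects differed by the test of the difference itself for 2 of the 5 RNAs. MALAT1 was higher in PABPC4 RIP than in PABPC1 RIP by a log2 value of 0.37 (limma voom adjusted p = 4.02e-15). All 4 pairings of a PABPC4 with a PABPC1 library gave a fold above 1, from 1.24 to 1.34 on the median-of-ratios scale. NEAT1 differed by a log2 value of -0.66 (limma voom adjusted p = 3.08e-19), and all 4 pairings gave a fold under 1, from 0.616 to 0.647. The 6 erythroid markers summed to 380 to 560 RPM (reads-per-million of the library total) in the same PABPC4 libraries and 1086 to 1160 in the PABPC1 libraries, and their part in either result was not tested.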

How the results depend on the processing

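Scaling moved the comparisons with IgG most. In PABPC4 RIP, the 3 RNAs called higher became 1 (MALAT1) under totals over nuclear-encoded genes, under median-of-ratios scaling and under limma voom with that scaling. NEAT1 turned to 0.541-fold, 0.601-fold and 0.601-fold there and OIP5-AS1 to 0.793-fold, 0.881-fold and 0.837-fold. In PABPC1 RIP, the 3 called higher became 0 under each of these settings (2 of 5 at an unadjusted p under 0.05 by limma voom). MALAT1 turned to 0.958-fold under nuclear totals, and NEAT1 to 0.878-fold, 0.952-fold and 0.952-fold under the 3 settings. Fisher's exact test, dropping the constant, the filter on low reads and limma voom with library totals left 3 called in each RIP. Leaving out each library gave 2 to 3 in PABPC4, where TUG1 was lost, and 3 to 3 in PABPC1. Between the RIPs, the 2 called became 1 under limma-trend. With a library left out, MALAT1 ranged over 0.33 to 0.40 in log2 value and NEAT1 over -0.70 to -0.63. By library totals KCNQ1OT1 turned to 0.20 and OIP5-AS1 to 0.038 in log2 value, and TUG1, with a library left out, ranged over -0.059 to 0.53, turning without PABPC1 library B. Genes without recovered reads counted as not called in these alternatives, and the cause of the changes was not tested.

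Over all genes, the calls for PABPC4 were 1188 higher and 193 lower, against 111 and 451 under nuclear totals, 167 and 396 under median-of-ratios, 194 and 131 by limma voom on that scale, 2294 and 51 by limma voom on library totals, 1546 and 47 with the filter on low reads, and 363 to 1151 and 93 to 112 with a library left out. For PABPC1 they were 235 and 34, against 25 and 80, 36 and 52, 44 and 33, and 371 and 29 in the same order of settings, and 49 to 237 and 12 to 24 with a library left out. Between the RIPs they were 187 higher and 166 lower, against 1106 and 55 by library totals, 5 and 7 by limma-trend, 127 and 155 without the filter, 333 and 199 without IgG in the fit, and 2 to 359 higher and 10 to 297 lower with a library left out. No paired analysis was possible because the recovered libraries carry no replicate number. IgG depth limits TUG1 and OIP5-AS1, with 3 and 17 IgG reads.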

Other observations

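Of 1114 RefSeq lncRNA genes with a deposited p for PABPC4, 8 were higher and 1 was lower, and of 823 for PABPC1, 6 were higher and 0 were lower by the authors' test, with the called RNAs among the 5 counted except TUG1. The shares over all genes were 5.54% higher in PABPC4 and 1.34% in PABPC1, and 28.5% and 3.36% at 100 to 1000 reads. At 1000 to 10000 reads, the range of KCNQ1OT1 and NORAD, they were 91.6% and 52.7%. Only 36 of 1211 lncRNA genes with reads had at least 100. By summed reads, the fold over IgG ranked MALAT1 17th, NEAT1 37th, KCNQ1OT1 16th, OIP5-AS1 32nd and TUG1 6th of 37 lncRNAs with at least 100 reads in PABPC4 RIP.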
